A study of Mus musculus with 10 samples.

Results

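This account concerns 165 probes of a mouse expression chip. Their signal was high in embryonic fibroblasts, low in heart, and still above 0.5 times the fibroblast level in first-round reprogrammed cells. They were chosen from the intensities themselves: empty values and values under 25 were set to 25, the signal in fibroblasts had to be at least 4 times that in heart, and each of 6 first-round reprogrammed-cell arrays had to stay above 0.5 times the fibroblast signal. Of 23473 probes on the chip, 572 were fibroblast-high by this ratio and 165 of these (28.8%, or 0.703% of the chip) met the whole rule, called the retained probes here. The other 407 fibroblast-high probes were at or below 0.5 times the fibroblast level on at least 1 of the 6 arrays. Since the fibroblast, heart and 6 reprogrammed-cell values made the choice, every value on those arrays, including differences between them, is given as a description that supports nothing further. The 2 arrays of a later round were not used in the choice.

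The series profiled 10 RNA samples, 1 array each, on Toray 1-colour chips. Induced cardiomyocyte-like cells (iCM) came from mouse embryonic fibroblasts (MEF) transduced by pMx retrovirus with GMT, the cardiac transcription factors Gata4, Mef2c and Tbx5, and were sorted for GFP under the cardiac α-MHC promoter. In the GMT/miR-133 arm a synthetic mimic of mature miR-133a was transfected at the same time, and each arm had 1 array at each of days 3, 7 and 18. A later round, also at day 7, held GMT/miR-133/Snai1 iCM (the Snai1 array) and a repeat of GMT/miR-133 iCM (the second array), 1 array each, and the controls were 1 array of untreated MEF and 1 of untreated heart tissue. The sort kept only GFP-positive cells, so cells in which the reporter stayed silent are not in the iCM samples, and heart tissue holds other cell types beside cardiomyocytes. GMT/miR-133 iCM at day 7 thus have 1 array in each round, every other group has a single array on a day, and MEF and Heart have 1 array each, so how precise any value is depends on this small number of arrays.

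As background, direct reprogramming asks fibroblasts to switch on cardiac genes without passing through a stem cell, and it also requires that the fibroblast programme be switched off. That programme includes genes for collagens and other matrix proteins, for the contractile cytoskeleton and for growth in culture, and embryonic fibroblasts divide while adult heart muscle hardly does. miR-133 is a microRNA abundant in heart and skeletal muscle, and Snai1, a zinc finger transcription factor that drives epithelial-mesenchymal transition and maintains mesenchymal gene expression, is among its reported targets. A probe that is high in fibroblasts and low in heart need not mark fibroblast identity, because culture, embryonic origin and cell division can also set cells apart from heart tissue. No file used here links the chip's probe IDs to genes, and the reference gene table held 0 of the IDs. The retained probes are therefore named by ID, their known roles cannot be given, and the labels fibroblast and heart could not be checked against marker genes.

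The deposited value table needs a caution before its values are used. Each of its columns tracks 1 scanner file almost exactly, with a correlation across probes of at least 0.999986 to that file and at most 0.992 to the next. The table columns for day 3 match the scanner files deposited for day 7, and those for day 7 match the files for day 3, with the arm kept. By the matched files, MEF, Heart and the day 7 and day 18 columns come from 1 scan session, the day 3 pair from another, and both later-round arrays from a further one. For the second GMT/miR-133 array the labels conflict: its description names GMT without the microRNA, while its other labels include it. Values below are those of the table under its own day names, and results that rest on day 3 or day 7 are also given without that pair or with the days exchanged. Between 53.8% and 56.8% of the probes on each array were empty or under 25, which is close to each column's median among filled values.

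The retained probes were of moderate signal in MEF and weak in Heart. Their MEF intensity had a median of 355, ranging from 101 to 18316, and their Heart intensity had a median of 47.4. In 36 of the 165 (21.8%) the Heart value lay at the floor of 25, which makes the ratio a lower bound, against 144 of the other 407 fibroblast-high probes (35.4%). The median ratio of MEF to Heart was 5.18 for the retained probes and 6.70 for the others, while the median MEF level itself was 355 for the retained probes and 336 for the others. A MEF intensity of at least 1000 was reached by 31 retained probes, and 51 lay below 200. MEF was at least 8 times Heart at 33 of them.

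The 3 probes with the highest ratio of MEF to Heart show the pattern at 3 signal strengths. M300000141 had the highest ratio, 48.1. In GMT/miR-133 iCM it read 1552, 1479 and 1267 at days 3, 7 and 18, and in GMT iCM 2242, 1355 and 1172, compared with 1732 in MEF and 36.0 in Heart. Every first-round iCM array of M300000141 thus sat within 1.5-fold of MEF and far above Heart. For M400011125 the 6 first-round iCM arrays ran from 843 to 1779, compared with 1213 in MEF and 30.6 in Heart, a MEF to Heart ratio of 39.7. M200008372 was brighter still: its GMT/miR-133 iCM values were 8400.0, 8432 and 7980.2 at days 3, 7 and 18 and its GMT iCM values 11043, 8278 and 8252, compared with 9078 in MEF and 276 in Heart. All its first-round iCM arrays except day 3 GMT read slightly below MEF. The brightest retained probe in MEF, M400010831, read 18316 there and 3435 in Heart, with first-round iCM values of 13285 to 18546, and on the later round it was lower, at 7873 on the Snai1 array and 9828 on the second GMT/miR-133 array.

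Probes further down that ranking differed in where the iCM lay. M400010747, with its Heart value at the floor, read 815, 1513 and 1481 in GMT/miR-133 iCM at days 3, 7 and 18 and 1274, 1608 and 1713 in GMT iCM, compared with 655 in MEF. All 6 arrays were above MEF. M200008261, also at the floor in Heart, read 324, 316 and 216 in GMT/miR-133 iCM and 318, 319 and 228 in GMT iCM, compared with 394 in MEF, and here all 6 were below it. M200004466 ran from 472 to 700.1 over the 6 arrays, on both sides of its MEF value of 655, with 44.3 in Heart. A high ratio of MEF to Heart thus went with iCM levels above, below and around MEF.

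Both thresholds of the rule cut through a continuous range. Just inside the ratio of MEF to Heart, M200014459, M200004472 and M300004135 had ratios of 4.002, 4.006 and 4.007, and just outside it M200001978, M300006778 and M400012979 had 3.99, 3.98 and 3.97. At the other threshold, the lowest of the 6 iCM arrays relative to MEF was 0.505 for M200002371, 0.505 for M200001502 and 0.508 for M200002899, all inside. It was 0.499 for M200001461, 0.496 for M400000721 and 0.496 for M200001746, all outside. A further 33 of the other fibroblast-high probes missed on 1 array only: 12 on day 3 GMT/miR-133, 3 on day 3 GMT, 1 on day 7 GMT/miR-133, 1 on day 7 GMT, 10 on day 18 GMT/miR-133 and 6 on day 18 GMT. The others also held 167 probes at or below 0.25 times MEF on all 6 arrays, which leaves 240 in between.

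How many fibroblast-high probes were retained depended on the arrays counted. On all 3 GMT/miR-133 arrays 176 of the 572 stayed above 0.5 times MEF, and on all 3 GMT arrays 204 did. Of these, 11 were retained in the GMT/miR-133 arm only and 39 in the GMT arm only. With both arms counted, 225 were retained at day 3, 232 at day 7 and 200 at day 18. Over days 7 and 18 alone, whose columns share the scan session of MEF by the matched files, the count was 190, which includes all 165.

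Retained did not mean equal to MEF. Of the 165 probes, 46 were above MEF on all 6 first-round arrays, 26 were below it on all 6 (though above the 0.5-fold limit), and 93 lay on both sides. The mean over the 6 arrays relative to MEF had a median of 0.07 on the log2 scale. Within 1.5-fold of MEF on every array were 48 probes, while 41 reached at least 2-fold above MEF on at least 1 array and 7 on all 6. All 165 stayed at least 2-fold above Heart on every first-round iCM array, which the rule fixes, and 97 stayed at least 4-fold above it. The standard deviation over the 6 arrays had a median of 0.29 (log2) and ran from 0.07 to 0.87.

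The 7 probes at least 2-fold above MEF on all 6 arrays were M200014040, M200007578, M200009317, M200005101, M200004359, M300002981 and M200000655. M200014040 stood furthest out. Its GMT/miR-133 iCM values were 1341, 2590.3 and 1507 at days 3, 7 and 18 and its GMT iCM values 1386, 1903 and 1363, compared with 219 in MEF and a Heart value at the floor. The mean over the 6 arrays was 7.44 times MEF (2.89 on the log2 scale, SD 0.38, n = 6 arrays), and it was 2.76 and 2.61 with quantile normalization of the table and of the scanner files. Both later-round arrays were high as well, at 1314 on the Snai1 array and 2904 on the second GMT/miR-133 array.

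M200007578 and M200009317 came next, with means of 3.50 and 3.27 times MEF. M200004359 was the brightest of the 7: in GMT/miR-133 iCM it read 5591, 6685 and 5388 at days 3, 7 and 18, and in GMT iCM 5086, 5987 and 5961, compared with 1869 in MEF and 107 in Heart. No first-round iCM array of M200004359 came near its MEF value. M200000655 was the most even retained probe, with a standard deviation over the 6 arrays of 0.07 (log2). Its first-round iCM values ran from 306 to 349.8, compared with 134 in MEF and 31.2 in Heart. At the low end, M200012683, M200001502, M200009892, M300001525 and M200003518 averaged 0.620, 0.630, 0.634, 0.641 and 0.646 times MEF, in that order, and each was below MEF on all 6 arrays.

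**Figure D1:**
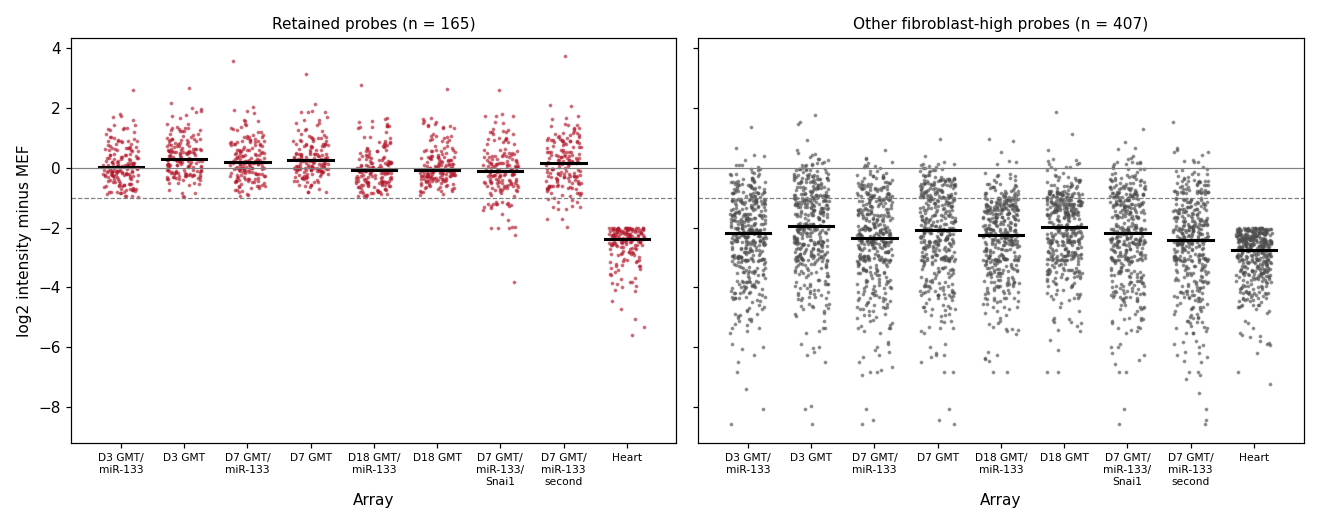
Log2 intensity minus MEF (y axis) on each array (x axis), 1 point per probe, for the 165 retained probes (left) and the 407 other fibroblast-high probes (right); black bars are medians, the solid line is MEF and the dashed line is 0.5 times MEF. On the 6 first-round iCM arrays, where the rule places every retained probe above the dashed line, their medians lie between -0.09 and 0.30, while those of the other fibroblast-high probes lie between -2.34 and -1.95.

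By array, the median of the retained probes relative to MEF (log2) was 0.02 in GMT/miR-133 iCM and 0.30 in GMT iCM at day 3. It was 0.18 in GMT/miR-133 iCM and 0.24 in GMT iCM at day 7, and -0.09 in GMT/miR-133 iCM and -0.07 in GMT iCM at day 18. Over the 5639 probes with a MEF intensity of at least 100, which is the lowest level a retained probe can have, the medians at days 3, 7 and 18 were 0.10, 0.12 and -0.05 in GMT/miR-133 iCM and 0.16, 0.18 and 0.00 in GMT iCM. Bright probes in general were thus also lowest at day 18 in both arms. The plot of log2 intensity by array shows that the retained probes keep a wide spread around MEF on each array, with upper quartiles from 0.33 to 0.78.

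**Figure D2:**
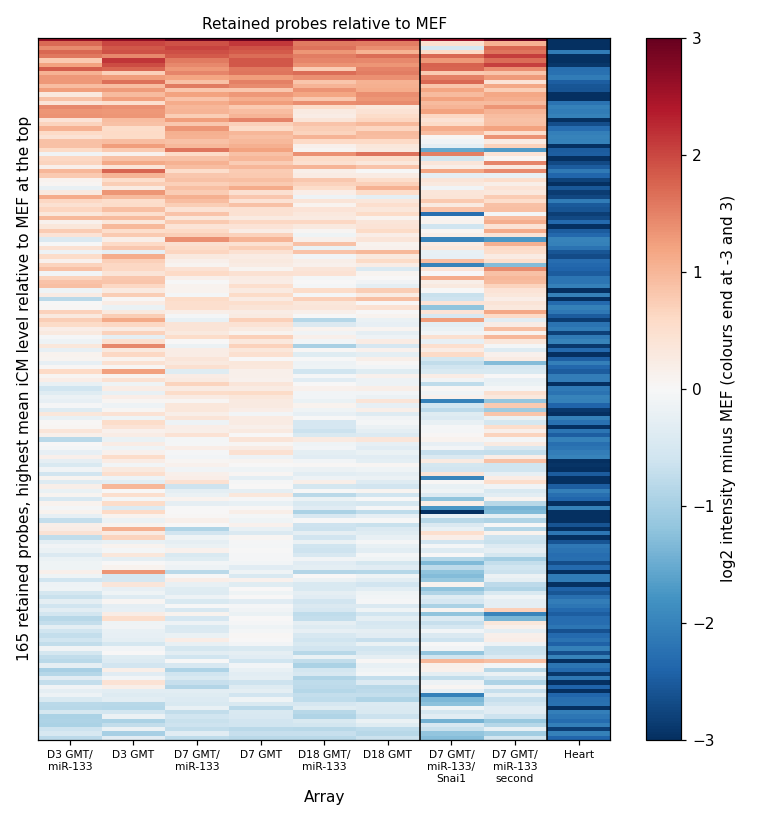
Log2 intensity minus MEF (colour, cut at -3 and 3) for each retained probe (165 lines, sorted by the mean over the 6 first-round iCM arrays) on each array (columns); black lines set off the 2 later-round arrays and Heart. Probes above MEF on all 6 first-round arrays form the red upper part, 46 in number, and isolated dark blue cells on the later-round arrays mark probes that were low there.

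The 2 later-round arrays were not used by the rule. Whether the same probes stayed above 0.5 times MEF there was thus not fixed by the choice, although MEF itself is shared. With 1 array on each side there is no test. On the Snai1 array 142 retained probes (86.1%) were above 0.5 times MEF, against 90 of the other fibroblast-high probes (22.1%). All fibroblast-high probes together gave 40.6%, and all probes with a MEF intensity of at least 100 gave 86.6%. On the second GMT/miR-133 array the retained probes numbered 152 (92.1%) and the others 64 (15.7%), with 37.8% for all fibroblast-high probes and 85.8% for all bright probes. The share of retained probes above 0.5 times MEF was thus close to that of bright probes at large on the Snai1 array and above it on the second array. It was well above that of the other fibroblast-high probes on both. This count has no upper limit, and 16 retained probes on the Snai1 array and 24 on the second array were at least 2-fold above MEF. The share of the retained probes above MEF itself was smaller, with 71 on the Snai1 array and 89 on the second array.

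Retention was lost on the Snai1 array at 23 probes and on the second GMT/miR-133 array at 13, and 9 of these were lost on both. M400010742 lay furthest below MEF on the Snai1 array, where it read 53.7, compared with 306 on the second array, 766 in MEF and 73.7 in Heart. The Snai1 value lay below Heart, and the value on the second array already lay below 0.5 times MEF. M200016251 was low on both later arrays, at 48.3 on the Snai1 array and 43.0 on the second one, against 426 on the first day 7 GMT/miR-133 array and 140.2 in MEF. M300015329 read 25 on the Snai1 array and 30.5 on the second one, against 259 on the first array and 101 in MEF. Both probes were therefore near their Heart value in the later round, a floor value of 25, while all first-round iCM arrays had read well above it.

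The second GMT/miR-133 array also serves as a comparison of rounds, because its title and treatment label give it the condition and day of the first-round array. At 11 retained probes it was at least 2-fold lower than the first array and at 1, M200005925, at least 2-fold higher, while 3.19% and 3.12% of the 11051 probes above 25 on either array were lower and higher to that degree. The median over the retained probes was -0.10 (log2), against 0.06 over those 11051. The first array helped choose the retained probes and the second did not, so lower values on the second are favoured by the choice itself. The 2 arrays also differ in round, in scan session and in the conflicting description. Which of all these moves with the difference cannot be told apart.

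The values of both arms chose the retained probes: of the 204 that stayed above 0.5 times MEF on the GMT arrays, the 39 that did not do so on the GMT/miR-133 arrays were left out by the rule. The difference between arms at the retained probes is therefore a description, limited in size by the rule. Nothing is read from it about probes that GMT alone left above 0.5 times MEF. The median of the difference, GMT/miR-133 minus GMT, was -0.11 on the log2 scale, against -0.03 over all 10772 probes above 25 on at least 3 of the 6 arrays. In a limma model of log2 intensity over these 10772, with arm and day as terms and the days in place of replicates, 1 retained probe was called lower and 0 higher at an adjusted p of 0.05. The same fit called 0.706% of all probes lower and 0.195% higher (0.9% in either direction). It called 1.18% of tested probes with a MEF intensity of at least 100 lower. Of the 289 other fibroblast-high probes tested, it called 12.8% lower and 0 higher, and their median difference was -0.33.

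The probe called lower was M200002899, whose GMT/miR-133 iCM values were 718, 504 and 289 at days 3, 7 and 18, compared with 1553, 917 and 403 in GMT iCM. The GMT/miR-133 value was the lower one on each day, and both arms were lower on each later day. The fitted difference was -0.82 ± 0.14 (log2, moderated SE from limma, 3 pairs), and it stayed between -0.99 and -0.67 over the alternatives. Here and below, the SE of a fitted difference draws on the variance of all probes tested, so it is not the spread over pairs or arms. M200002028, with 297, 153 and 99.7 in GMT/miR-133 iCM and 394, 296 and 156 in GMT iCM at the same days, was also lower on each day, by a mean of -0.67 ± 0.13 (log2, SE, 3 pairs).

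By sign alone, on all 3 days 52 retained probes (31.5%) were lower in GMT/miR-133 iCM, against 20.2% of all probes tested. On all 3 days 12 (7.27%) were higher, against 10.9%. Tested probes with a MEF intensity of at least 100 gave 24.8% lower and 9.42% higher. The 289 other fibroblast-high probes tested were lower more often, at 56.1%, with 5.88% higher, so lower values were not particular to the retained probes. Quantile normalization of the table turned the split to 45 lower and 17 higher (14.8% and 16.0% over all), and the scanner files gave 42 lower and 21 higher (15.5% and 17.0% over all). Without the day 3 pair, 62 were lower (37.6%, against 31.7% of all probes tested) and 33 higher (20%, against 19.3%). Without the day 7 pair there were 82 lower (49.7%, against 29.9%) and 22 higher (13.3%, against 22.9%). With the second GMT/miR-133 array as the day 7 array, 63 were lower (38.2%, against 19.003%) and 16 higher (9.70%, against 14.1%).

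The difference between arms was uneven over the days. At day 3 the median over the retained probes was -0.25 (log2) and 126 of 165 were lower in GMT/miR-133 iCM, at day 7 it was -0.05 with 95 lower, and at day 18 it was -0.08 with 99 lower. The mean of the 3 medians was -0.13 ± 0.11 (log2, SD, n = 3 days), so the shift was about as large as its spread over days. Over all probes tested the medians were -0.02, -0.06 and -0.01 at the same days. The shares lower at days 3, 7 and 18 were 76.4%, 57.6% and 60% of the retained probes, against 53.2%, 60.0% and 51.3% of all. At day 7 the retained probes were thus no lower than probes in general. At least 2-fold lower in GMT/miR-133 iCM were 9 retained probes at day 3 and 0 at days 7 and 18. Of all 10772 probes tested, 146, 43 and 54 were lower to that degree at days 3, 7 and 18. The day 3 columns match scanner files deposited for day 7 and scanned in another session. The day 7 columns have the reverse mismatch of labels, and their matched files share the scan session of the day 18 columns. Day and session cannot be told apart.

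Single probes differed in the day on which the arms lay furthest apart. M200009302 read 128, 162 and 139 in GMT/miR-133 iCM at days 3, 7 and 18, compared with 331, 231 and 188 in GMT iCM. For M200002371 the GMT/miR-133 values were 216, 224 and 293 and the GMT values 479, 366 and 392 at those days. In both probes the gap was widest at day 3 and narrowed with each later day, while that of M200002028 was widest at day 7. In the opposite direction, M200000851 had 275, 200.4 and 191 in GMT/miR-133 iCM and 227, 158 and 110.3 in GMT iCM, a mean difference of 0.47 ± 0.13 (log2, SE) that was widest at day 18. M200013837 had 251, 308 and 203 in GMT/miR-133 iCM and 178, 183 and 191 in GMT iCM, a mean difference of 0.44 (log2) that was widest at day 7 and nearly gone at day 18.

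**Figure D3:**
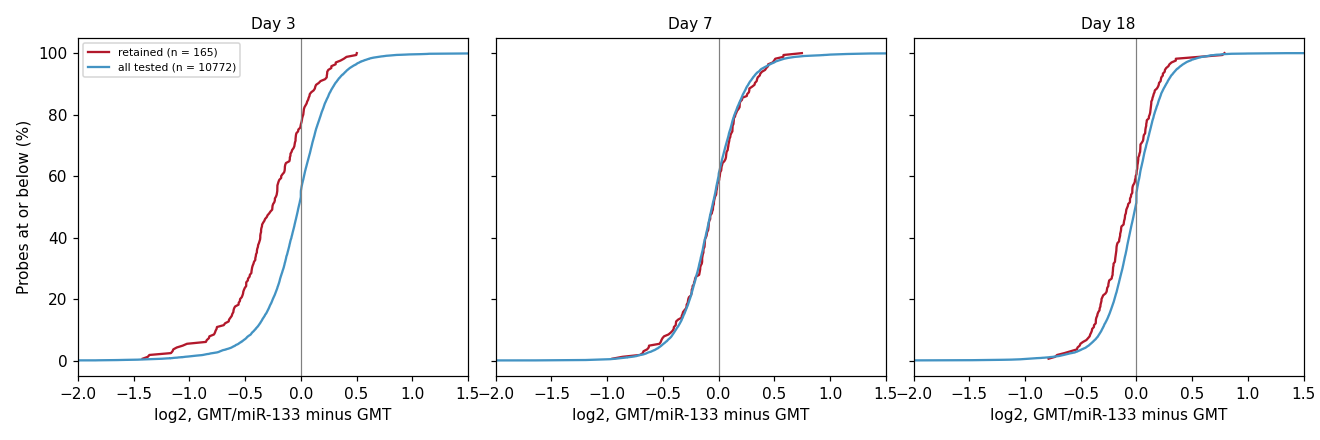
Cumulative share of probes (y axis, %) against log2 GMT/miR-133 minus GMT (x axis) at days 3, 7 and 18, for the 165 retained probes (red) and all 10772 tested (blue). The red curve lies left of the blue one at day 3, with medians of -0.25 and -0.02, and closer to it at days 7 and 18.

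The days are set side by side in the same way, as a description of arrays whose values chose the probes. The 2 arms supply the replicates of a day, the day 18 arrays are shared by both comparisons, and the rule bounds the size of any drop. Against day 7, the median difference at day 18 was -0.24 (log2) over the retained probes and -0.12 over all 10772 probes. In both arms 109 retained probes (66.1%) were lower at day 18 and 17 (10.3%) were higher, against 49.8% and 19.7% of all probes tested. The limma fit called 18 retained probes lower and 1 higher at an adjusted p of 0.05, with 3.87% and 1.87% of all probes called (5.74% in either direction). The share of retained probes called lower was 10.9%. Of the 289 other fibroblast-high probes tested, 9.69% were called lower and 11.1% higher, with a median difference of -0.05. Tested probes with a MEF intensity of at least 100 gave 4.68% and 1.57%, with a median of -0.15. Fewer cells that express a gene and less of its RNA per cell cannot be told apart in such bulk samples.

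The median of all probes tested was -0.12 (log2) in the table and -0.02 after quantile normalization, both for day 18 minus day 7 and for day 18 minus day 3. Relative to the median of all probes, the retained probes lay at -0.11 in the table as deposited, at -0.07 after quantile normalization and at -0.03 in the scanner files for day 18 minus day 7. The calls split 8 lower and 1 higher after quantile normalization, where 3.11% of all probes were called. In the scanner files, where the days are those of the sample records, they split 39 lower and 19 higher, with 27.0% of all probes called.

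Against day 3, the median difference at day 18 was -0.19 (log2) over the retained probes and -0.12 over all. In both arms 83 retained probes (50.3%) were lower at day 18 and 41 (24.8%) higher, against 50% and 28.5% of all probes tested. The limma fit called 49 retained probes lower and 13 higher (29.7% and 7.88%), with 22.6% and 11% of all probes called (33.6% in either direction), and this comparison crosses scan sessions by the matched files. Of the other fibroblast-high probes tested, 33.6% were called lower and 21.1% higher. Tested probes with a MEF intensity of at least 100 gave 23.7% and 9.48%. Relative to all probes the median of the retained probes was -0.06 in the table, -0.03 after quantile normalization and -0.07 in the scanner files. After quantile normalization the calls split 38 lower and 19 higher, with 30.6% of all probes called. With days 3 and 7 exchanged, the counts from day 3 become those given above for day 7.

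Among the largest differences from day 3 were some already present by day 7. M200006916 read 816, 417 and 396 in GMT/miR-133 iCM at days 3, 7 and 18 and 1829.7, 665 and 399.7 in GMT iCM, compared with 728 in MEF. Its difference, day 18 minus day 3, was -1.62 ± 0.24 (log2, moderated SE). The arms lay further apart than this SE, at -2.19 in GMT iCM and -1.04 in GMT/miR-133 iCM. M400008348, a brighter probe, read 3606, 2609 and 2048 in GMT/miR-133 iCM and 6076, 3041 and 1778 in GMT iCM at those days, compared with 1802 in MEF. Its difference was -1.29 ± 0.21 (log2, moderated SE), from -1.77 in GMT iCM and -0.82 in GMT/miR-133 iCM. In both probes the day 3 array was the highest first-round array of its arm, and the day 7 and day 18 arrays lay closer together. In the scanner files, whose day names differ, the same difference was -0.23 for M200006916 and -0.33 for M400008348, so the larger values rest on the day 3 columns of the table.

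M200006720 was among the probes furthest below day 7 at day 18. Its GMT/miR-133 iCM values were 2032, 1944 and 835 at days 3, 7 and 18 and its GMT iCM values 1798, 1631 and 763, compared with 934 in MEF. Both arms were clearly above MEF at days 3 and 7 and just below it at day 18. The difference from day 7 was -1.16 ± 0.13 (log2, SE) and that from day 3 -1.26 ± 0.13 (log2, SE). Under the other scalings both lay between -1.11 and -0.98. M400010742 ended at 394 in GMT/miR-133 iCM and 449 in GMT iCM at day 18, against 777 in GMT/miR-133 iCM and 861 in GMT iCM at day 7, a difference of -0.96 ± 0.15 (log2, SE).

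Other retained probes called lower at day 18 than at day 7 were M200016251, M200002899, M300015329, M200006364, M400004572, M200016293 and M200002028, with fitted differences of -1.21, -0.99, -0.93, -0.84, -0.78, -0.77 and -0.77 (log2) in that order. M200016251 and M300015329 peaked on the day 7 arrays, at 426 and 259 in GMT/miR-133 iCM and 325 and 204 in GMT iCM, and in the scanner files, where other arrays carry the label of day 7, the same difference was -0.32 and 0.36. M200006364 was likewise highest on the day 7 arrays, at 1232 in GMT/miR-133 iCM and 1448 in GMT iCM, and its difference in the scanner files was -0.03. For M200006720, M400010742, M200002899, M200002028, M400004572 and M200016293 the difference from day 7 was -0.64 or lower under each of the 3 scalings. M200016251 also kept its direction, with a smaller difference in the scanner files. For M200006364 hardly any difference was left there, and only M300015329 of the probes named here turned.

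The retained probe called higher from day 7 was M300009368, which also stood furthest above its day 3 level. In GMT/miR-133 iCM it read 203, 327 and 566 at days 3, 7 and 18, and in GMT iCM 236, 399 and 674, compared with 217 in MEF and 39.0 in Heart. It was near the MEF level at day 3 and higher at each later day in both arms, away from MEF and further from Heart. The difference from day 7 was 0.77 ± 0.13 (log2, SE) and that from day 3 was 1.497 ± 0.13 (log2, SE). The next highest above day 3 were M200002766, M200004280, M200004005 and M200002007, with differences of 1.20, 1.14, 0.96 and 0.82 (log2).

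**Figure D4:**
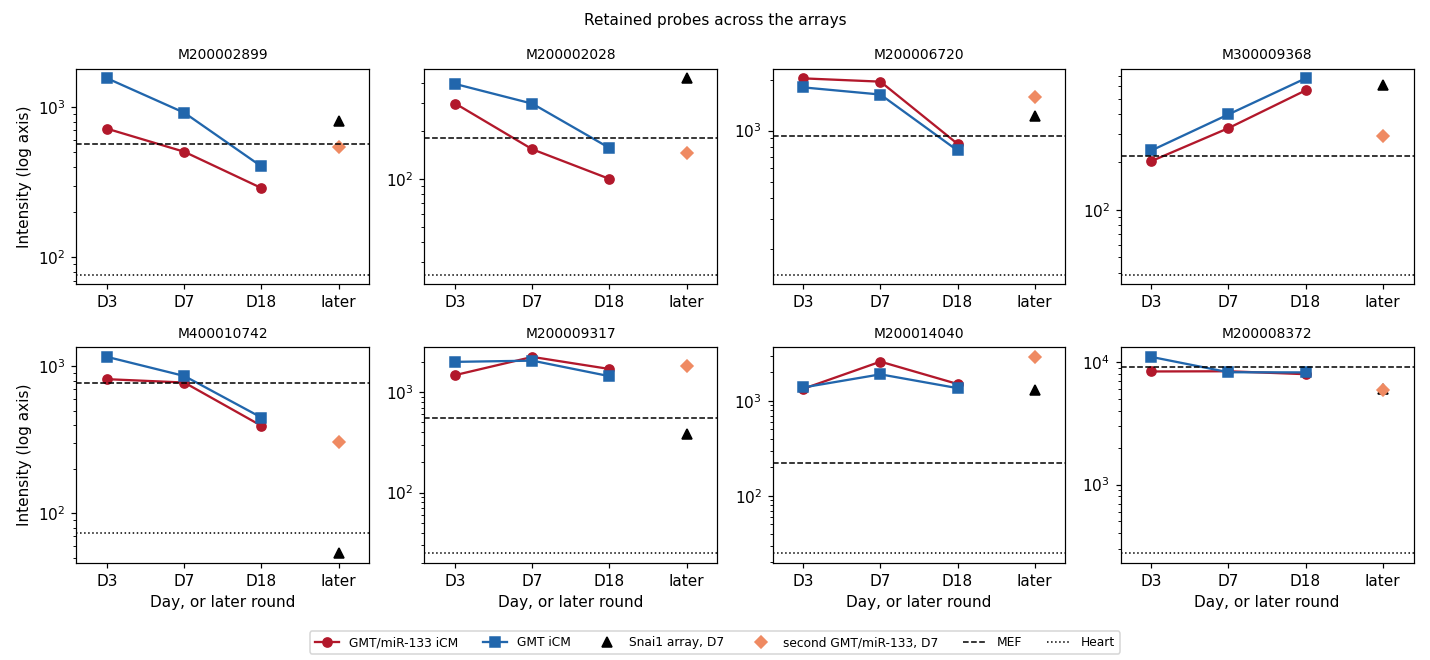
Intensity (y axis, log scale) of 8 retained probes in GMT/miR-133 iCM (red circles) and GMT iCM (blue squares) at days 3, 7 and 18, and on the Snai1 array (black triangles) and the second GMT/miR-133 array (orange diamonds) of the later round; dashed and dotted lines are MEF and Heart. M200002899 is lower in the GMT/miR-133 arm on each day, M300009368 is higher on each later day in both arms, and M400010742 lies near its Heart line on the Snai1 array only.

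The Snai1 array asked what the retained probes did when Snai1 was supplied together with GMT and miR-133. Against the second GMT/miR-133 array of the same round, 22 retained probes (13.3%) were at least 2-fold lower and 3 (1.82%) at least 2-fold higher, with 6.79% and 1.94% of all 10786 probes compared at those sizes. Against the first day 7 GMT/miR-133 array, 28 (17.0%) were lower and 4 (2.42%) higher, with 7.38% and 2.96% over all. The medians over the retained probes were -0.24 and -0.29 (log2), against -0.18 and -0.14 over all probes compared. These are single arrays and the values have no test. The rule also kept only probes above 0.5 times MEF on the first array. Lower values elsewhere are thus favoured by the choice itself, and the comparison with the first array is a description only.

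The direction of this shift depends on the scaling. After quantile normalization the median of the retained probes against the second array was 0.04, with 7 at least 2-fold lower and 11 at least 2-fold higher, against 3.63% and 2.59% of all probes tested. In the scanner files it was also 0.04, with 5 lower and 9 higher, against 2.14% and 1.34%. The median of all probes tested was -0.16 in the table, 0.00 after quantile normalization and 0.01 in the scanner files. Relative to it the retained probes lay at -0.08, 0.04 and 0.04 in these 3 versions. Of the other fibroblast-high probes, 9 were at least 2-fold lower and 58 at least 2-fold higher, in the table as deposited, with a median of 0.33 over the 282 compared with the second array.

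Some retained probes were far lower on the Snai1 array under every scaling tried. Against both day 7 GMT/miR-133 arrays, 10 were at least 2-fold lower on the Snai1 array, with 3.19% of 10559 probes lower against both. The first of these arrays helped choose the retained probes, so the 10 are a description. Of these, 5 kept that size under all 3 scalings: M400010742, M200009317, M200003437, M200006850 and M300000820. The share of all probes that did so under all 3 scalings was not counted. These 5 are therefore given as single probes, and nothing particular to the retained probes is read from them. In the scanner files the first array is the one that matches the table's day 3 column, so that version also changes the array. M200009317 read 387 on the Snai1 array, compared with 1811 on the second GMT/miR-133 array and 2246 on the first. This is the probe that exceeded MEF, 550.2, at least 2-fold on all 6 first-round arrays, and the Snai1 array was the one iCM array below MEF. M200006850 read 187 on the Snai1 array, compared with 863 and 844 on the second and first GMT/miR-133 arrays and 736 in MEF. Every iCM array of M200006850 except the Snai1 array lay close to MEF.

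M200003437 likewise read 44.6 on the Snai1 array, compared with 207 on the second and 389 on the first GMT/miR-133 array, and M300000820 read 49.6 on the Snai1 array, compared with 167 on the second and 157 on the first. Both came close to their Heart values of 30.3 and 39.0. The differences from the second array were -2.51, -2.23, -2.21, -2.21 and -1.75 (log2) for M400010742, M200009317, M200003437, M200006850 and M300000820 in the table, and -1.70, -1.75, -1.49, -1.74 and -1.06 in the scanner files. The other 5, M200004128, M200005101, M200006325, M300003876 and M400000146, differed from the second array by -1.54 to -1.02 in the table and by -0.97 to -0.69 in the scanner files.

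Higher on the Snai1 array against both day 7 arrays was M200002028, with 1.24% of all probes higher against both. It read 427 there, compared with 144 on the second and 153 on the first GMT/miR-133 array. The Snai1 value was above every first-round iCM value of this probe, the highest of which was 394 in day 3 GMT iCM, and it was above MEF at 179. The difference from the first array was 1.48 (log2) in the table and 1.65 after quantile normalization. In the scanner files it was 0.61, but there the first array is the one that matches the table's day 3 column. M200001184 read 2894 on the Snai1 array, compared with 1163 and 1625 on the second and first arrays, and M300009368 read 615 on the Snai1 array, compared with 290.2 on the second and 327 on the first. In the table as deposited, these last 2 were at least 2-fold higher than the second array but not than the first.

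**Figure D5:**
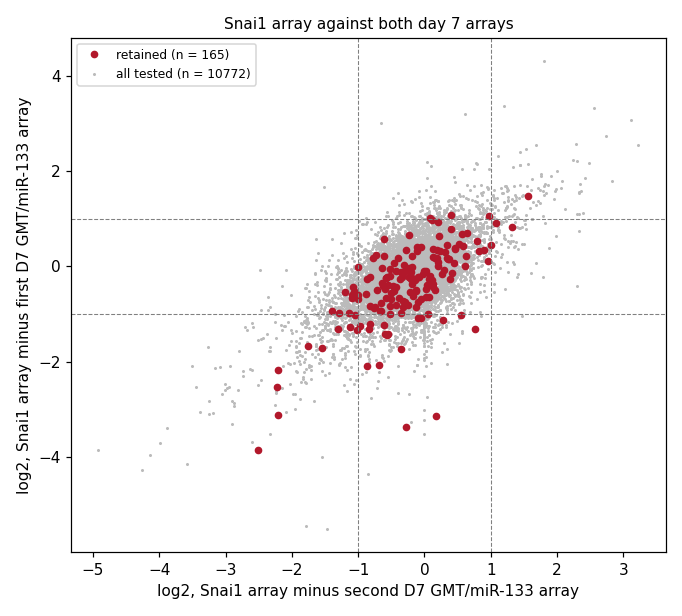
Log2 difference of the Snai1 array from the second (x axis) and first (y axis) day 7 GMT/miR-133 array, for the 165 retained probes (red) and all 10772 probes tested (grey); dashed lines mark 2-fold. In the lower left, 10 retained probes are at least 2-fold lower against both arrays, and in the upper right 1 is at least 2-fold higher against both; both axes share the Snai1 array, so the points align for that reason too.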

How the data were processed

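RNA of 10 mouse samples was measured with 1 Toray 1-colour array each; per the labels' protocols, amplified RNA was dye-coupled and hybridised. The deposited scanner files hold, per the file headers, a median intensity for each of 27456 spots, 23474 of them probes and 2736 blank, with no normalization. The authors' deposited value table holds intensities on a linear scale for the same 23473 probes, with column medians near 25.0 and empty cells for dim probes; its scaling steps are not given in the sources used here. This table is the main source because the choice of probes is defined on it, and the scanner files (normexp background fitted to blank spots, offset 50, quantile normalization) are an alternative.

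Empty values and values under 25 were set to 25, with no scaling between arrays, and log2 was taken. Arm and day differences of the 6 first-round iCM arrays were fitted with limma 3.58.1 under R 4.3.3 over 10772 probes above 25 on at least 3 of them, in a model of arm plus day that leaves 2 residual degrees of freedom before moderation, with Benjamini-Hochberg adjustment at 0.05 over all of them. Arms were paired by the day in the sample labels. These fits cover arrays that chose the retained probes, so their calls among those probes are counts with no weight as evidence. Single arrays were compared by a 2-fold limit, over probes above 25 on either array.

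The members and lists were chosen with earlier results of these data known. Probes were named by rank: the 10 highest ratios of MEF to Heart, the 10 highest and 5 lowest iCM means relative to MEF, the 5 largest differences each way between arms, between days 18 and 3 (same sign throughout) and between the Snai1 and second arrays, the 3 nearest to each threshold on each side, and up to 10 called per test. M400010831, M200005925 and those listed by a count of 10 or fewer were added after their values were seen. The text gives values for part of them. The design's gene lists, markers and promoter motifs could not be applied, since the files used here give no gene for a probe; for the same reason no sequence is shown.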

Additional observations from a re-analysis of the deposited data

How the results depend on the processing

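The number of retained probes was 211 with a floor of 10 and 114 with a floor of 50, 136 after quantile normalization of the table, and 168 to 193 with a day pair left out of the rule. It was 33 with MEF at least 8 times Heart, 109 with every iCM array above 0.7 times MEF, and 67 in the scanner files, 65 of them among the 165. Retained probes called between arms numbered 0 in the scanner files with or without background subtraction and 0 after quantile normalization. Of all probes, 0.00928% were called in the scanner files with background subtraction, 0.576% without it and 0.607% after quantile normalization. The retained probes called numbered 0 when the second GMT/miR-133 array replaced the first and 0 with no filter on dim probes. Over all probes 0 were called in either setting. There were 3 with a floor of 10 and 3 with a filter on all 6 arrays, where 1.53% and 1.31% of all probes were called. With a day pair left out there were 0 to 6. Without the day 3 pair the 6 were 4 lower and 2 higher, with 3.24% of all probes called. Without the day 7 pair there were 0, with 0 called over all probes. Without the pairing by day as a block, limma called 0 (10 at an unadjusted p under 0.05), with 0 called over all probes. The other limma settings with 0 calls among the retained probes had 15 to 35 of them at that level. Retained probes lower in GMT/miR-133 iCM on every pair numbered 62 to 82 with a pair left out, an alternative chosen after seeing the data. That was 37.6% to 49.7% of them, against 29.9% to 35.5% of all probes tested. From day 3 to day 18 limma called 7 in the scanner files, 0 with no filter (46 at an unadjusted p under 0.05) and 19 with days exchanged. Of all probes it called 1.95% in the scanner files, 0.0170% with no filter and 5.74% with days exchanged. From day 7 to day 18 it called 58 in the scanner files, 9 after quantile normalization and 0 with no filter (33 unadjusted). It called 2 with no arm term and 62 with days exchanged. The shares of all probes called were 27.0% in the scanner files and 3.11% after quantile normalization. They were 0.00426% with no filter, 0.473% with no arm term and 33.6% with days exchanged. On the Snai1 array the median against the second array turned to 0.0448 (log2) both after quantile normalization and in the scanner files, and the number past 2-fold was 14 in the scanner files. Retention on the later arrays stayed within 1.5 times its count under each alternative: 117 to 146 on the Snai1 array and 126 to 152 on the second one. Beyond the settings named, the cause of these changes was not tested. Depth has no counterpart here: probes near 25 lie at the level of over 50% of the chip, and differences of retained probes at that level are bounds.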
